A study of Mus musculus with 13 samples.

Results

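The cytosolic ribosomal protein genes of the mouse oocyte were followed through meiotic maturation. They were taken by symbol, as the Rpl and Rps genes that the count tables list under a number, P0 to P2 or the letter a, with the suffixes a, x, l or l1 allowed. This gave 86 of 18939 symbols: 30 core genes of the small (40S) subunit, 43 core genes of the large (60S) subunit, the 3 genes of the P-stalk and 10 paralogs or copies of core genes. GENCODE M21 lists 82 of them as protein-coding and 4 (Rpl32l, Rpl6l, Rps12l1 and Rps4l) as processed pseudogenes, a kind of sequence that resembles the parent mRNA. Rpl32l had no count in any of the 13 libraries and Rpl3l had 1 count in 1 library, and neither could be tested.

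Ribosomal proteins form the small subunit, which decodes the mRNA, and the large subunit, which joins amino acids. Oocytes store ribosomes and mRNAs while they grow, transcription stops at the end of growth, and maturation to metaphase II then runs on stored mRNA, part of which is degraded and part of which gains a longer poly(A) tail and is translated. In most cells mRNAs of ribosomal proteins begin with a 5′ terminal oligopyrimidine tract (TOP), a C followed by a run of C and T at the first transcribed base, through which mTOR and LARP1 control their translation.

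Each library was 1 oocyte of C57BL/6 females that were 3 to 4 weeks old and had received PMSG 48 h earlier. In every group the oocytes carried injected mRNA for FBL–GFP, which marks the nucleolus, and for H2B-mCherry, were kept for 6 h in Cilostamide, which holds them at the germinal vesicle (GV) stage, and were sorted by their FBL–GFP pattern into surrounded nucleolus (SN) and non-surrounded nucleolus (NSN) oocytes. There were 3 GV_SN, 3 GV_NSN, 4 MII_SN and 3 MII_NSN oocytes, the MII oocytes being those that had matured from GV oocytes of the named type. The paper describes maturation in culture after release from Cilostamide, so that stage and time in culture cannot be told apart. It reports that fewer NSN than SN oocytes broke down the GV and extruded a polar body. The MII_NSN oocytes are thus those NSN oocytes that could mature. The labels do not tie oocytes to animals, so that p-values measure the spread between these oocytes.

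The libraries held 7140404 to 8846297 counts and 11593 to 13342 detected genes. Levels are given as CPM (counts scaled to library size and TMM factor) for 1 gene across libraries and as FPKM, which is per length, between genes; either is relative to the other mRNAs of the oocyte, and because reverse transcription was primed on poly(A) tails, fewer mRNAs and shorter tails cannot be told apart. The oocyte markers on the list (Gdf9, Zp3 and others, 12 genes) summed to 20115 to 22660 CPM in GV_SN, 22323 to 26952 in GV_NSN, 21561 to 24523 in MII_SN and 17907 to 19468 in MII_NSN libraries, the MII_NSN libraries lying below all others. The 22 markers of cumulus and granulosa cells summed to 62.9 to 93.9 CPM in GV_SN, 69.7 to 76.4 in GV_NSN, 104 to 133 in MII_SN and 101 to 189 in MII_NSN libraries, with the follicle genes Foxl2, Fst, Lhcgr and Ptx3 at 0 in every library, while Cyp19a1 gave 50.5 CPM at GV and 103 CPM at MII; 7 of the 22 passed the filter on low counts. Their sum was higher at MII, where ribosomal protein genes were lower, and its part in the results was not tested. For the ribosomal protein genes, a pair of libraries stood apart. GV_NSN replicate 2 was the highest GV library for 78 of the 84 tested genes, against 27.1% of all tested genes, and MII_NSN replicate 3, with the fewest detected genes, was the lowest MII library for 43, against 22.4%.

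Ribosomal protein genes made up 1.21% ± 0.264 (SD, n = 6) of the counts of GV oocytes and 0.155% ± 0.0299 (SD, n = 7) of those of MII oocytes. The GV_SN libraries held 1.23, 1.01 and 1.35%, and the GV_NSN libraries 1.04, 1.65 and 0.958%. The MII_SN libraries held 0.146, 0.164, 0.151 and 0.144%, and the MII_NSN libraries 0.201, 0.171 and 0.103%. Every GV library therefore lay above every MII library, and within a stage the SN and NSN libraries overlapped. These shares are given without a test. The mean share was 7.81 times higher at GV than at MII, 7.89 times in SN and 7.68 times in NSN oocytes. By subunit, it was 11.1 times higher at GV for the 40S core genes, 9.53 times for the 60S core genes, 3.91 times for the P-stalk genes and 1.88 times for the paralogs. By FPKM the share of all members was 5.32 times higher at GV, 2.97% ± 0.476 (SD, n = 6) against 0.559% ± 0.113 (SD, n = 7). The share of mRNAs for mitochondrial ribosomal proteins was 3.45 times higher at GV and that of other genes with transcripts of up to 1000 bases was 1.96 times higher.

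**Figure D1:**
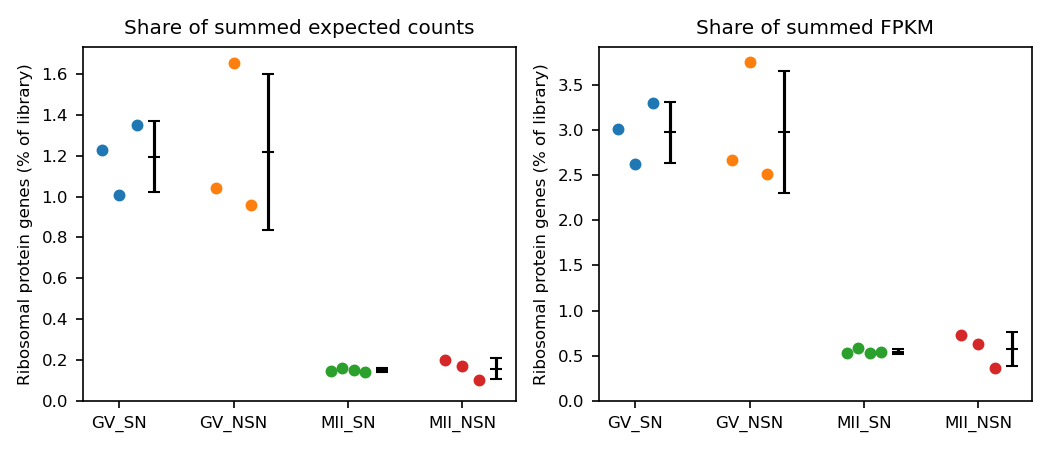
Share of each library taken by the 86 ribosomal protein genes, as percent of summed expected counts (left) and of summed FPKM (right), with 1 point per oocyte and black marks for the mean and SD of a group. All GV libraries lie at 0.958% of counts or more and all MII libraries at 0.201% or less.

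Of the 86 genes, 84 passed the filter on low counts and were tested between the stages by edgeR's quasi-likelihood test over all libraries, and genes with a Benjamini-Hochberg adjusted p under 0.05 are named as called. Lower levels at MII were called for 79 of the 84 genes, against a background of 36.9% of all tested genes called lower (68.6% were called in either direction). A higher level was called for 1 gene (Rps27l, against 31.7%), and 4 genes, Rpl41, Rps28, Rps15a and Rpl10l, were not called. The median log2 change was -3.88, against -0.10 over all tested genes. A fall of at least 8-fold was called for 58 of the genes, against 11.7% of all tested genes. The libraries of both stages did not overlap, lower at MII, for 75 of the genes, against 26.5%, and higher at MII for 1, against 20.9%. For 6 of the 84 genes (Rpl10a, Rpl12, Rpl36a, Rpl6l, Rpl9 and Rps27) the filter was passed through the GV libraries alone. Passing in this way favors a lower level at MII. Of the 78 others, 73 were called lower, with a median log2 change of -3.82. The other counts between the stages, including those by subunit, list or oocyte type, do not leave these 6 genes out. The changes had a Pearson r of -0.01 and a Spearman rho of -0.04 with the log2 FPKM at GV over 84 genes, as a description.

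The 40S core genes were called lower in 28 of 30 cases, with a median log2 change of -4.43. The lowest change was that of Rps27a (chr11:29545846-29548109 in GRCm38, minus strand), which encodes a ubiquitin fused to a protein of the 40S subunit. Rps27a gave 144 to 278 CPM at GV (median 176) and 0.866 to 4.73 CPM at MII (median 2.18), without overlap, a log2 change of -6.36 ± 0.32 (SE, adjusted p = 8.94e-11). Rps4x, an X-linked core gene, gave 257 to 366 CPM at GV and 1.4995 to 11.4 CPM at MII (log2 change -5.73). At the other end, Rps15a (chr7:118104372-118116188, minus strand) gave 96.2 to 195 CPM at GV (median 133) and 92.9 to 136 CPM at MII (median 109). Its stages overlapped, and the log2 change of -0.30 ± 0.17 (SE, adjusted p = 0.136) was not called. Rps28 was not called either, with 22.4 to 56.0 CPM at GV and 6.92 to 30.7 CPM at MII (log2 change -0.59, adjusted p = 0.101). Rps2, a core gene as well, had a log2 change of -1.05.

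The 60S core genes were called lower in 42 of 43 cases, with a median log2 change of -3.92. Rpl12 (chr2:32961559-32965345, plus strand), a protein near the base of the stalk, gave 2.63 to 5.91 CPM at GV and no count in any of the 7 MII libraries. Against a floor of 3 counts per library, Rpl12 was at least 8.68-fold lower at MII, and with it set to this bound the median of the 84 genes was -3.84. Rpl19 (chr11:98026710-98030492, plus strand) gave 205 to 371 CPM at GV (median 257) and 1.69 to 4.62 CPM at MII (median 3.45). Its stages lay far apart, with a log2 change of -6.52 ± 0.25 (SE, adjusted p = 1.21e-11), the lowest of the genes with counts in every library. Rpl15 showed the smallest change, from 68.4 to 121 CPM (median 83.6) to 51.3 to 77.2 CPM (median 60.8). The stages overlapped for Rpl15, while the log2 change of -0.53 ± 0.17 (SE) was called (adjusted p = 0.0118). Rpl41, which encodes the shortest ribosomal protein, gave 200 to 391 CPM at GV and 28.5 to 305 CPM at MII. Its MII libraries spread more widely than its GV libraries, and the log2 change of -0.66 ± 0.34 (SE, adjusted p = 0.0957) was not called. It was called without MII_NSN replicate 1 (-0.99) and without MII_NSN replicate 3 (-0.42), which held its highest and its lowest MII value.

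The P-stalk binds the GTPases of translation with its proteins P0, P1 and P2. All 3 genes were called lower, by unequal amounts. Rplp0 gave 327 to 543 CPM at GV and 70.1 to 116 CPM at MII (log2 change -2.34 ± 0.16, SE). Rplp1 gave 111 to 217 CPM at GV and 6.92 to 50.7 CPM at MII, with the value of 6.92 CPM in MII_NSN replicate 3 and all others above 40 CPM (log2 change -1.85 ± 0.32, SE). Rplp2 gave 103 to 228 CPM at GV and 83.1 to 128 CPM at MII, with overlap (log2 change -0.60 ± 0.19, SE, adjusted p = 0.00913).

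**Figure D2:**
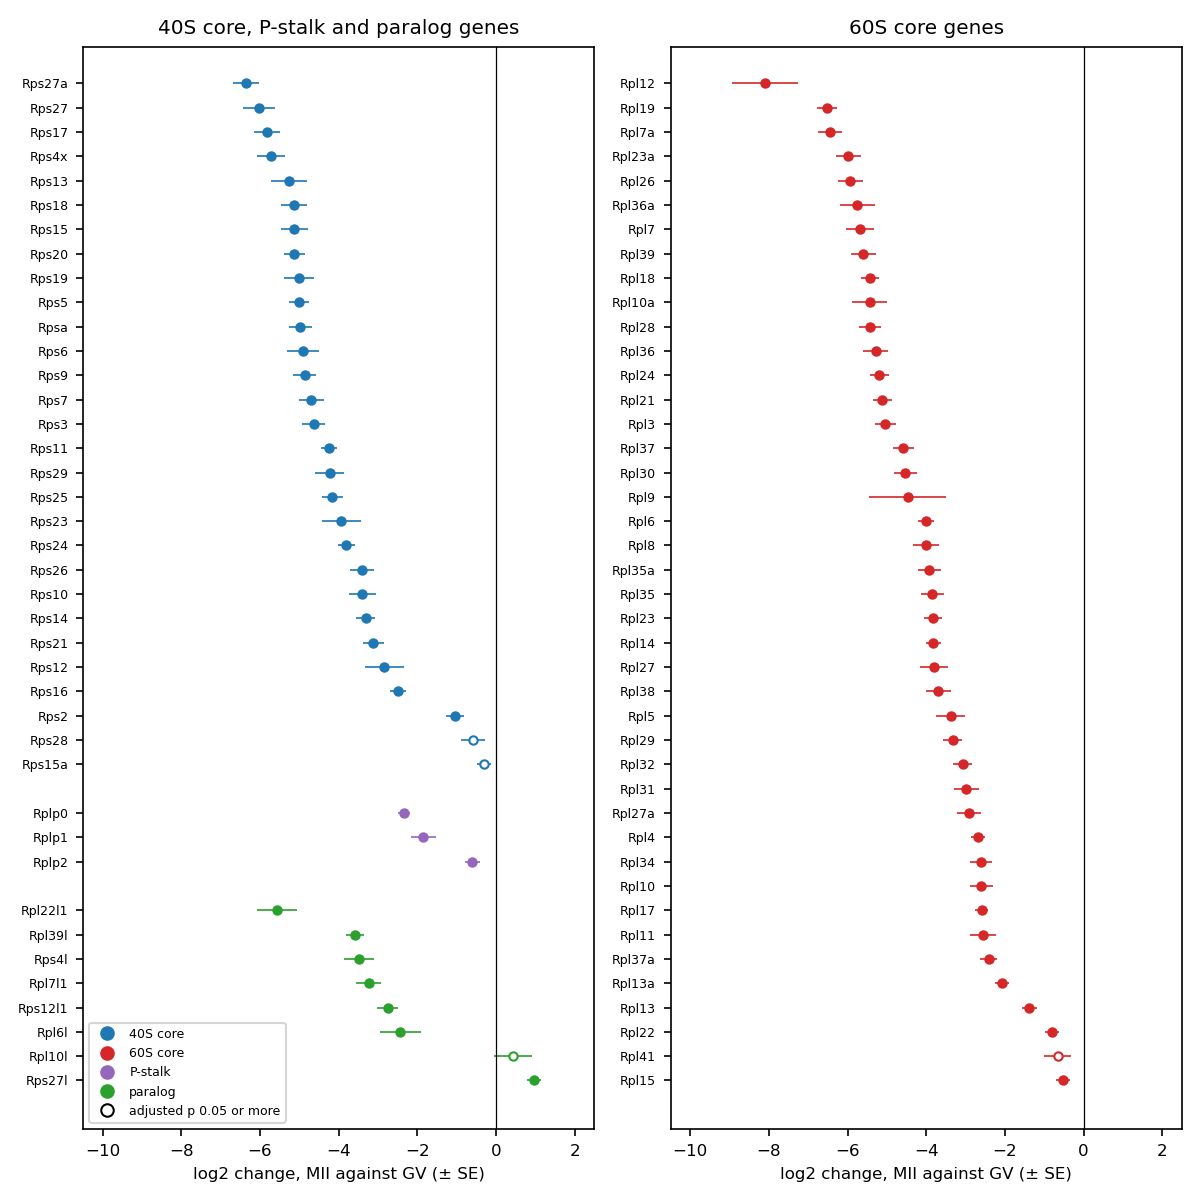
log2 change of tested genes, MII against GV, with its SE, ordered within role. Filled points passed an adjusted p of 0.05 and open points (Rps15a, Rps28, Rpl41 and Rpl10l) did not. Rps27l is the only filled point above 0, at 0.96.

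Among the 8 tested paralogs and copies, 6 were called lower and 1 higher, with a median log2 change of -2.996. The gene called higher was Rps27l (chr9:66946086-66949516, plus strand), a paralog of Rps27. Rps27l gave 149, 134 and 160 CPM in GV_SN and 97.1, 188 and 121 CPM in GV_NSN oocytes. It gave 246, 218, 236 and 341 CPM in MII_SN and 255, 248 and 372 CPM in MII_NSN oocytes. Every MII library thus exceeded every GV library, with a log2 change of 0.96 ± 0.18 (SE, adjusted p = 1.49e-04), and the counts of Rps27l were whole numbers in every library. Rps27 itself (chr3:90212522-90213651, minus strand) gave 35.8 to 120 CPM at GV (median 61.7) and 0.338 to 2.86 CPM at MII (median 0.990), a log2 change of -6.02 ± 0.41 (SE). It passed the filter through the GV libraries alone, which favors a lower level at MII. By FPKM, Rps27l made up 44.0 to 64.7% of the sum of both genes at GV and 98.4 to 99.8% at MII. The counts of Rps27, unlike those of Rps27l, were not whole in at least 1 library, so that its own level is less certain. Rps27rt, which the symbol rule leaves out, averaged 23.1 FPKM at GV and 0 at MII and is not in this sum.

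In none of the other pairs was the paralog called higher. Rpl22, whose counts were whole as well, fell by 0.80 on the log2 scale, from 34.3 to 59.2 CPM to 17.7 to 30.5 CPM. Its paralog Rpl22l1 fell further, from 24.0 to 70.8 CPM to 0 to 2.06 CPM (log2 change -5.56 ± 0.51, SE). Rpl22l1 went from 39.1 to 58.2% of the summed FPKM of the pair at GV to 0 to 14.03% at MII. In Rpl39 and Rpl39l, whose proteins line the exit tunnel, the paralog fell less, with log2 changes of -5.60 and -3.57, and made up 24.8 to 32.8% of the pair at GV and 42.3 to 86.2% at MII. Rpl7 and Rpl7l1 had log2 changes of -5.69 and -3.24. Rpl10 fell by 2.60 on the log2 scale, while Rpl10l, a retrogene of Rpl10 best known from the testis, was at 0.632 to 7.49 CPM at GV and 2.79 to 10.1 CPM at MII and was not called (log2 change 0.43, adjusted p = 0.433).

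The 4 annotated processed pseudogenes are copies of core genes. Rps4l was at 62.2 to 152 CPM at GV and 2.03 to 13.9 CPM at MII (log2 change -3.49, against -5.73 for Rps4x), with whole counts in every library. Rps12l1 (log2 change -2.76) and Rps12 (-2.85) had counts that were not whole in 12 libraries each, and Rpl6l (-2.43) and Rpl6 (-4.01) in all 13, so that the split within these pairs is uncertain. Rpl32l had no count in any library.

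**Figure D3:**
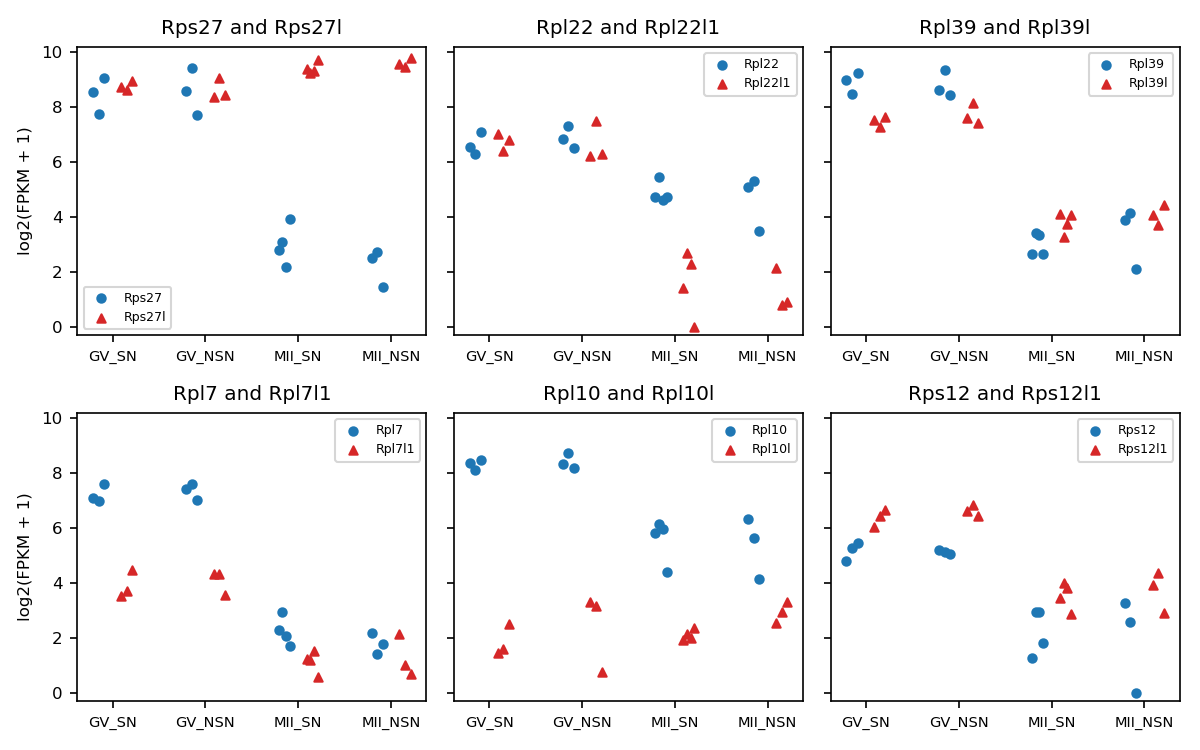
log2(FPKM + 1) in each oocyte for 6 core genes (circles) and their paralogs (triangles). Rps27l stays between 329 and 877 FPKM through both stages while Rps27 drops to 14.1 FPKM or less at MII; Rpl22l1 drops below Rpl22.

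Reads that fit several genes were shared out by the authors' software, and 71 of the 86 genes had counts that were not whole in at least 1 library (by more than 0.005). Among the 13 tested genes with whole counts in every library, 11 were called lower and 1 higher, with a median log2 change of -3.49. The 71 others had a median of -3.94, with 68 called lower.

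Ordered by length-normalized level, Rps29 and Rpl32 were among the most abundant at GV, with 1049 and 726 FPKM on average. At MII the order was Rps27l, Rpl41 and Rplp2, with 729, 424 and 252 FPKM. The ranges of Rps27l (600 to 877 FPKM) and of Rplp2 (180 to 316 FPKM) at MII did not overlap, while those of Rpl41 (58.1 to 791 FPKM) overlapped with both. At least 100 FPKM was reached by 65 genes at GV and by 6 at MII, and the median over the 86 genes was 195 FPKM at GV and 8.84 FPKM at MII. The levels at both stages were related with a Spearman rho of 0.626 over the 84 tested genes, given as a description. Rps27l made up 1.86 to 2.27% of the summed FPKM of the members in GV libraries and 18.04 to 41.9% in MII libraries. Together, Rps27l, Rpl41, Rplp2 and Rps15a, chosen after their values were seen, made up 8.14 to 9.34% at GV and 46.0 to 59.3% at MII.

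Lists of genes that share a site or a role in the ribosome were counted as well. The 8 genes of the exit tunnel were all called lower (median log2 change -4.72), from Rpl17 at -2.59 to Rpl19 at -6.52. Of the 20 genes known from Diamond-Blackfan anaemia, 18 were called lower (median -3.83), and Rps15a and Rps28 were not called. Rpl9 and Rps27, both on this list, passed the filter through the GV libraries alone. Rpl5 and Rpl11, which hold the 5S rRNA and bind MDM2 when free, had log2 changes of -3.38 and -2.56. The 4 X-linked genes (Rps4x, Rpl10, Rpl36a and Rpl39) were all called lower, with a median of -5.66. Of these, Rpl36a passed the filter through the GV libraries alone, which favors a lower level at MII. Over all tested genes the share called lower was 36.9%, as above.

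The starts of the genes were compared with their changes, since the TOP tract is the known mark of these mRNAs. RefSeq promoter windows (GRCm38.p6, 250 bases before to 50 after each annotated start) were found for 63 of the 86 genes, with 75 windows. A C followed by at least 4 C or T on the coding strand began exactly at the start in 18.7% of these windows and in 2.51% of all 32851 windows. Within 10 bases of the start it was found in 56.0% and 30.7%. The letters CCGGAAG or CTTCCGG, read on both strands as a match to the GABP motif, were in 34.7% of the windows of the members and in 8.86% of all. The 6 sequences below are the genes with a run exactly at the start and the 3 lowest or the 3 highest changes; each shows 10 bases before the start and 20 from it on, with the run in capitals:
Rps27, chr3:90213629-90213658, minus strand: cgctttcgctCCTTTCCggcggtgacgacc
Rpl28, chr7:4792955-4792984, plus strand: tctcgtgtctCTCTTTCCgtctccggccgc
Rps18, chr17:33955646-33955675, minus strand: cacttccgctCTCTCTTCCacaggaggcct
Rplp2, chr7:141447641-141447670, plus strand: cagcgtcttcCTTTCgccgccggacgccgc
Rpl15, chr14:18270967-18270996, minus strand: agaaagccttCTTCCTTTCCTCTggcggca
Rps15a, chr7:118116128-118116157, minus strand: tttctgccatCTTCCCTCgccggtgagtga
Rps27, Rpl28 and Rps18 had log2 changes of -6.02, -5.43 and -5.14, and Rplp2, Rpl15 and Rps15a of -0.60, -0.53 and -0.30. Rps27 had passed the filter through the GV libraries alone, which favors a lower level at MII. The 13 tested genes with such a run covered log2 changes from -6.02 to -0.30, with a median of -3.82. Genes with a run within 10 bases had a median of -3.83 (38 genes) and those without one -3.81 (23 genes). These groups depend on the annotated starts, and the first base of the mRNAs in these oocytes was not measured. They therefore do not separate mRNAs with a TOP tract from mRNAs without one.

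At the other end of the mRNA, the letters TTTTAT and TTTTAAT, the cytoplasmic polyadenylation element (CPE) bound by CPEB1 in maturing oocytes, were searched on the coding strand after the stop codon, in 1 GENCODE transcript per gene. They were found in the last 100 bases of 9 of the 82 genes with such a transcript, and 8 of the 9 held a single match. Rps27l held 2, and the site is shown with those of Rpl22 and Rps2, which fell little, and of Rpl32 and Rps24, which fell further, with the motif in capitals:
Rps27l, chr9:66949434-66949462, plus strand: attattgtttgaTTTTATaaagtctacaa
Rps27l, chr9:66949489-66949512, plus strand: ttttcaataaagTTTTAATtatgg
Rpl22, chr4:152333985-152334013, plus strand: aaacttgctggtTTTTATgcctttctaac
Rps2, chr17:24721884-24721904, plus strand: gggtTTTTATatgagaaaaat
Rpl32, chr6:115805526-115805554, minus strand: cttgtgtgcatgTTTTATgtttaaataaa
Rps24, chr14:24496876-24496904, plus strand: ataaaggctgtaTTTTATcaatttgtatg
These genes changed by 0.96 (Rps27l), -0.80 (Rpl22), -1.05 (Rps2), -3.07 (Rpl32) and -3.81 (Rps24) on the log2 scale. The 9 genes had a median log2 change of -2.92, with 8 called lower and 1 higher, and the 72 tested genes without the motif there had a median of -4.23. Over all tested genes the medians were 0.64 (2166 genes with the motif) and -0.32 (9071 without), and over other genes with transcripts of up to 1000 bases 0.15 (71 genes) and -2.27 (541 genes). Neither difference was tested, and the match of letters shows no binding. The log2 change had a Pearson r of 0.25 and a Spearman rho of 0.27 with the log10 length after the stop codon over 81 genes, given as a description.

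The maturation changes were then compared between oocyte types. In SN oocytes 77 of the 84 genes were called lower (background 31.2%) and 1 higher (background 25.1%), with a median log2 change of -3.88. In NSN oocytes 77 were called lower (background 30.8%) and 1 higher (background 25.4%), with a median of -4.01. In the same direction, 77 genes were called in both types, for which the share of all tested genes was not counted. Rpl10l, Rpl41, Rps15a and Rps28 were among those called in neither. The changes in the types, which share no library, had a Pearson r of 0.948 and a Spearman rho of 0.929 over 84 genes (0.885 and 0.894 over all 11375 tested genes), as a description. Of the 84, 80 differed by less than 1 on the log2 scale. The quartiles of this difference (NSN minus SN) were -0.34 and 0.15, against -0.34 and 0.40 over all tested genes. The farthest apart was Rpl9, at -2.91 in SN and -6.04 in NSN oocytes; its GV libraries ran from 0 to 22.9 CPM. Rps27l was at 0.82 in SN and 1.10 in NSN oocytes. The interaction of type and stage was called for 0 of the genes by edgeR (background 0.0176%), 0 by DESeq2 (background 0.343%), and 2 had an unadjusted p under 0.05 (background 5.33%). These were Rpl17 (difference of log2 changes 0.88 ± 0.32, SE, unadjusted p = 0.0127, adjusted p = 0.761) and Rpl36a (-1.89 ± 0.89, SE, unadjusted p = 0.0481, adjusted p = 0.926).

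**Figure D4:**
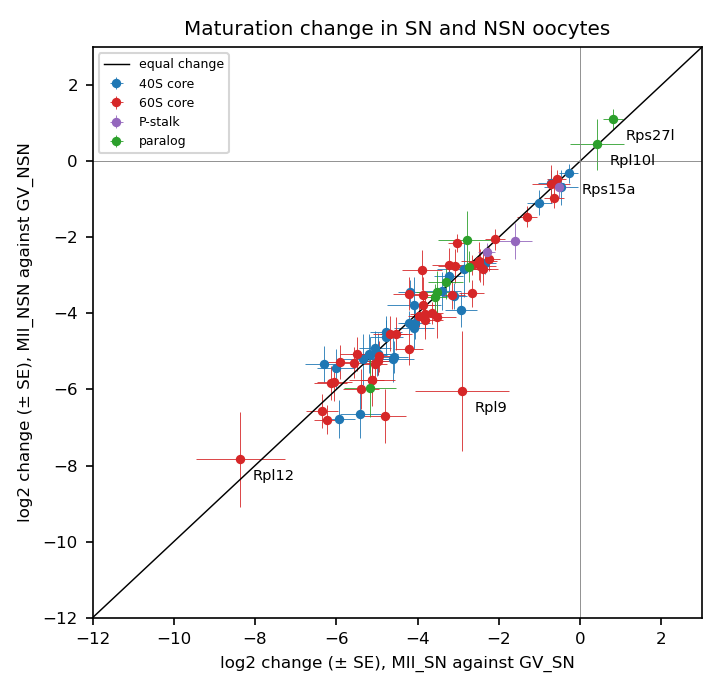
log2 change with maturation in SN oocytes (horizontal) and NSN oocytes (vertical) for the 84 tested genes, with SE bars and a line of equal change. The points follow the line, and Rpl9 lies 3.14 below it with wide SE bars.

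At the GV stage, NSN and SN oocytes were compared directly. None of the 84 genes was called by edgeR or DESeq2 (background 0% by either), and 0 had an unadjusted p under 0.05 (background 1.75%). The log2 differences (NSN against SN) had a median of 0.04, and 81 of the 84 lay within 0.5 of 0, with a median SE of 0.27. Their quartiles were -0.07 and 0.13, against -0.18 and 0.21 over all tested genes. Rps6, a substrate of S6 kinase, had the smallest unadjusted p; it gave 115, 89.8 and 121 CPM in GV_SN and 113, 167 and 116 CPM in GV_NSN oocytes (log2 difference 0.29 ± 0.22, SE). The types overlapped for every tested gene, against 6.03% of all tested genes that did not overlap. GV_NSN replicate 2 lay above the mean of the other GV libraries by a median of 0.65 on the log2 scale over the 84 genes, and by 0.55 over other short transcripts, 0.50 over mitochondrial ribosomal protein genes and 0.06 over all tested genes. Without it, the median log2 difference of the genes was -0.27, with 75 of the 84 below 0 (31 with it). None of the genes was then called by edgeR, while 12 had an unadjusted p under 0.05 (background 3%). Without GV_NSN replicate 1 or replicate 3 instead, 10 or 14 of the 84 lay below 0. The sign thus depended on which oocyte was left out.

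At MII, 78 of the genes were tested and 0 were called by edgeR (background 0.259%), with 3 at an unadjusted p under 0.05 (background 9.38%) and 1, Rpl17, called by DESeq2 (background 2.16%). The log2 differences had a median of -0.02 and a median SE of 0.51, and 59 of the 78 lay within 0.5 of 0. Their quartiles were -0.29 and 0.21, against -0.24 and 0.29 over all tested genes. Rpl17, whose protein sits at the tunnel exit, gave 38.6, 38.1, 38.5 and 32.9 CPM in MII_SN and 86.0, 69.4 and 57.4 CPM in MII_NSN oocytes. The types did not overlap, and the log2 difference of 0.94 ± 0.21 (SE) had an unadjusted p of 7.20e-04 and an adjusted p of 0.0978. Rpl32 gave 41.3, 33.9, 40.9 and 51.7 CPM in MII_SN and 30.0002, 25.7 and 10.5 CPM in MII_NSN oocytes, without overlap in the other direction (log2 difference -0.91 ± 0.34, SE, adjusted p = 0.385). Rpl10l gave 2.79, 3.34, 3.02 and 4.50 CPM in MII_SN and 4.40, 6.31 and 10.1 CPM in MII_NSN oocytes (log2 difference 1.01 ± 0.45, SE, adjusted p = 0.520). In all, 4 of the 78 genes did not overlap between the types (Rpl17 and Rps24 higher in NSN, Rpl32 and Rpl37 lower), against 10.2% of all tested genes. MII_NSN replicate 3 lay below the mean of the other MII libraries by a median of 0.64 on the log2 scale over the genes, and by 0.37 over other short transcripts. Without it, 1 of 80 tested genes was called by edgeR (Rpl17, log2 difference 1.08, adjusted p = 0.0173), against a background of 2.24%.

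**Figure D5:**
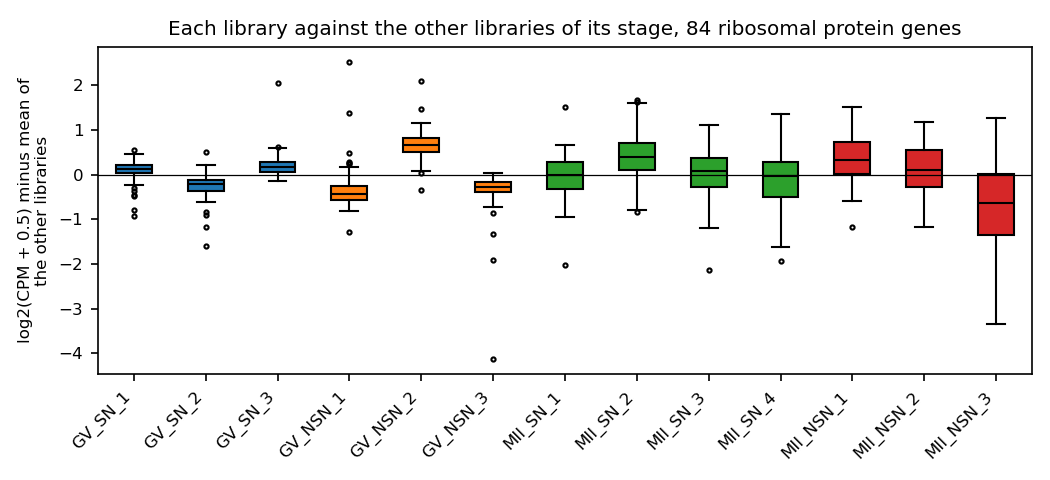
log2(CPM + 0.5) of the 84 tested genes in each library minus the mean of the other libraries of the same stage, as boxes of median and quartiles with whiskers to 1.5 times the box height and single genes beyond. The median of GV_NSN replicate 2 stands 0.65 above the other GV libraries and that of MII_NSN replicate 3 stands 0.64 below the other MII libraries.

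Genes related to the ribosomal protein genes were counted between the stages too, against the shares of all tested genes called lower (36.9%) and higher (31.7%). Of 5 ribosomal proteins with other names, Fau, Rps3a1 and Rpl36al were called lower (log2 change -2.81, -2.14 and -5.60), while Rack1 (-0.12) was not called. The mitochondrial ribosomal protein genes were called lower in 64 of 78 cases and higher in 3, with a median of -2.61, and other genes with transcripts of up to 1000 bases were called lower in 416 of 612 cases and higher in 69, with a median of -2.11. In the MII libraries alone, 68 of the mitochondrial and 474 of the short-transcript genes passed the filter. For those that passed through the GV libraries alone, the filter favored a lower level at MII. Of 18 other mRNAs with a TOP tract, 10 were called lower and 6 higher. The largest called changes were those of Eif3l (-4.40) and Eef1d (-5.05), of an initiation and an elongation factor, and of Eif4a2 (1.28) and Nap1l1 (0.92). Of 19 genes for the control of TOP mRNAs, 4 were called lower and 8 higher. Tsc2, a brake on mTOR, fell by 3.51 on the log2 scale, and Larp4 and Larp4b, which bind poly(A) mRNAs, rose by 1.85 and 1.68. Larp1 itself was at 2.48 CPM at GV and 1.94 CPM at MII on average and was not called. Of the 12 chaperones and importins that escort ribosomal proteins, 5 were called lower and 4 higher, among the latter Bccip at 1.19. Each of these 3 lists held 1 gene called lower that passed through the GV libraries alone, which favors lower levels at MII. These were Eif3f, a subunit of an initiation factor, the S6 kinase gene Rps6kb2 (3.43 to 5.06 CPM at GV and 0 to 0.789 CPM at MII) and Tsr2, the escort of Rps26 (0.710 to 11.1 CPM at GV and 0.131 to 1.55 CPM at MII, with overlap). Of 10 tested genes on a list of transcription factors, 3 were called in each direction, among them Ubtf (-2.13), Nrf1 (-1.51), Tbpl1 (1.61) and Sp1 (0.74).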

How the data were processed

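Single-oocyte cDNA was made by SMART-seq2 and sequenced by the authors, who trimmed reads with Trim Galore 0.4.4, mapped them to mm10 with Bowtie2 2.3.5 and quantified genes with RSEM 1.2.28 (processing notes of the submitters). They deposited expected counts per gene, 1 table for each stage, and FPKM values of 49686 symbols. No molecular identifiers are named, so counts cover counting error only in part. Expected counts were rounded; no column was left unused. Genes were filtered with filterByExpr, scaled by TMM and tested with edgeR 4.0.16 (R 4.3.3) quasi-likelihood fits: stages and the interaction over all libraries, types within a stage. Benjamini-Hochberg adjustment ran over all tested genes. DESeq2 1.42.0 and limma 3.58.1 on log2(FPKM + 1) were alternatives. The fits were tested on simulated data. Coordinates are from GENCODE M21 (GRCm38), promoter windows from RefSeq. The members and lists were chosen with earlier results of these data known. Named genes were those with the largest and smallest stage change in each role, the highest FPKM, the smallest p between types, paralogs with their core genes, genes at or under 3 counts in every library of a group, the gene called higher, and up to 4 called examples per other list; others are named where a count was small. No library pair was a copy. Protein sequences were not used here. A few genes are not reported here by name.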

Additional observations from a re-analysis of the deposited data

Results flagged for a closer look

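Among the 34 named genes, 4 had a library of the MII_SN group, the only group with 4 libraries, whose gap to the nearest of the others was over Dixon's critical share of the range of the group; chance alone flags about 5% of groups. Rpl17 was at 32.9 CPM in MII_SN replicate 4, and the 3 others lay between 38.1 and 38.6 CPM. Rpl41 was at 219 CPM in MII_SN replicate 2, and the others between 153 and 155 CPM. Rpl7 was at 7.71 CPM in MII_SN replicate 2, and the others between 1.73 and 2.04 CPM. Rpl7l1 was at 1.4995 CPM in MII_SN replicate 4, and the others between 3.55 and 3.85 CPM.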

How the results depend on the processing

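The number of ribosomal protein genes called between the stages (80) was 79 to 81 when each library was left out in turn and 80 to 83 under the other alternatives, and in SN and NSN oocytes 74 to 80 and 76 to 78. Over all genes, 7480 to 7830 of 11318 to 11742 tested were called between the stages with a library left out. In SN and NSN oocytes these were 5463 to 6714 and 5847 to 6426. The other alternatives called 7452 to 8809 of 11276 to 24536 tested genes between the stages. No called result changed direction, while the median differences between types took either sign, from -0.27 to 0.18 at GV and -0.22 to 0.21 at MII when each library was left out. Library totals without TMM factors moved the median of all tested genes from -0.10 to -0.39 and that of the ribosomal protein genes from -3.88 to -4.15, so that the difference between both medians was -3.78 and -3.76. Rps27l stayed higher at MII under each alternative (log2 change 0.65 to 1.12). Between MII_NSN and MII_SN oocytes, 1 gene was called by DESeq2 (Rpl17, against 2.16% of all tested genes), and 0 to 1 when each library was left out, with 1 without MII_NSN replicate 3 (against 2.24%). The ratio of shares was 5.32 over both types and 5.44 in SN oocytes by FPKM; leaving out each library gave 7.23 to 8.22 and 7.38 to 8.51. Rpl41 was called in 5 of 23 alternatives and Rps15a in 3. Restricting the genes to those with whole counts, a choice made after seeing the data, gave a median of -3.49. With the replicate number as a block, 80 genes were called between the stages, 76 in SN and 77 in NSN oocytes and 0 between types. Over all 11375 tested genes, this block gave 7452 between the stages, 5623 in SN and 6151 in NSN oocytes. Between types it gave 0 of 10839 at GV and 2 of 10028 at MII. The 18 pairs of libraries with the same number had deviations correlated at -0.44 to 0.21 (median -0.01). With so few oocytes per group, these values cannot tell whether the numbers pair the oocytes. Adding copies named -ps was not run, as the count tables list no such symbols. Symbols outside the count tables took 20.1% of the summed FPKM at GV and 10.5% at MII on average. Whether copies of the members under other names are among them was not tested. With 3 or 4 oocytes per group the median SE of a difference between types was 0.27 at GV and 0.51 at MII on the log2 scale, which limits the differences that could be detected.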
